A study of Mus musculus with 17 samples.

Results

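The genes described here are 10 of the 55471 genes in a table of hippocampal RNA counts, namely the granins and granin-like secretory proteins Vgf, Scg2, Scg3, Scg5, Chga and Chgb, and the prohormone processing genes Pcsk1, Pcsk1n, Pcsk2 and Cpe. They were chosen by name, as members of 1 secretory pathway, and each symbol matched a single row of the table. Total RNA was sequenced from the hippocampus of individual male C57BL/6 mice aged 3 to 6 months, in 17 libraries, to ask how the adult hippocampus responds to a convulsant after kindling and how this depends on CBP, a lysine acetyltransferase and transcriptional coactivator encoded by Crebbp. Every mouse, controls included, had received 5 intragastric doses of tamoxifen at 20 mg/mL. CBP-ifKO mice carried floxed Crebbp together with Camk2a-creERT2, a tamoxifen-inducible Cre recombinase expressed in forebrain excitatory neurons, so that CBP was kept in the other cells of the hippocampus. Control mice were tamoxifen-treated littermates that lacked the Cre transgene according to the study's methods, although their sample descriptions name it as well. Esr1, a part of which belongs to creERT2, stood at 41.0 to 77.8 normalized counts in controls and at 703 to 940.7 in CBP-ifKOs. Sal mice were not kindled and were given saline. PTZ0 mice were kindled with repeated 45 mg/kg pentylenetetrazole (PTZ, which blocks GABA-A receptors) and were given saline 1 week later, and PTZ45 mice were kindled in the same way and were given 45 mg/kg PTZ instead. The hippocampus was dissected 45 min after this last injection. Kindled refers here to the PTZ protocol, and the paper reports that no CBP-ifKO mouse under it reached the stage of progressive seizures. Each of the 6 groups had 3 libraries except Control PTZ45, which had 2.

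Neuropeptides, neurotrophins and hormones are made as large precursors, which are sorted into dense core vesicles in the trans-Golgi network and cut there into active peptides. Granins are acidic, calcium-binding proteins that aggregate in the forming vesicle and are themselves cut into peptides, the convertases encoded by Pcsk1 and Pcsk2 cut at pairs of basic residues, and carboxypeptidase E, from Cpe, trims the residues left at the new end. In hippocampal neurons several of these genes, with Vgf and Scg2 the best known, belong to the programs that respond to synaptic activity.

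The libraries held 5831992 to 18735643 counts each, and the 10 genes together took 0.275% to 0.333% of the counts of a library. Crebbp stood at 2169 ± 201 normalized counts (SD, n = 8) in controls and at 1214 ± 94.95 (n = 9) in CBP-ifKOs. The activity-regulated gene Fos stood at 2483 and 2915 in the Control PTZ45 libraries and at 163 to 288 in those of CBP-ifKO PTZ45. Markers of choroid plexus, a tissue that adjoins the hippocampus, set 5 libraries apart. The summed level of 10 such markers was above 10000 normalized counts in Control Sal replicate 2, Control PTZ0 replicate 2, CBP-ifKO Sal replicate 1, CBP-ifKO PTZ0 replicate 3 and CBP-ifKO PTZ45 replicate 2, and at most 3937 in the other 12. Of 7 measured markers of hypothalamus or pituitary, tissues rich in the same secretory genes, none reached a mean of 10 over the 17 libraries, although 1 did in Control Sal, and their sum ran from 10.5 to 23.4. Library names carry a sequencing lane that follows the groups, with Control Sal and Control PTZ0 in lane 3, CBP-ifKO Sal and Control PTZ45 in lane 4, and both kindled CBP-ifKO groups in lane 5. Lane and group thus cannot be told apart when 2 groups are compared, except for Control PTZ0 against Sal and CBP-ifKO PTZ45 against PTZ0, which lie within a lane. In bulk tissue, fewer cells of a type and less RNA per cell cannot be told apart either.

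The 10 genes are protein-coding and differ widely in base composition. On build GRCm38, Vgf lies at chr5:137026392-137033351 and has the highest exonic GC content of the 10, 63.6%. Pcsk1n, at chrX:7919822-7924410, has 57.3%, Chga, at chr12:102554969-102565028, has 57.2%, and Chgb, at chr2:132781278-132795079, has 53.9%. These 4 are the GC-rich members. Cpe, at chr8:64592542-64693054, has 49.9%. Scg5, at chr2:113776362-113829121, has 47.6%, Scg2, at chr1:79434669-79440120, has 46.8%, and Scg3, at chr9:75643189-75684056, has 45.1%. The lowest are Pcsk2, at chr2:143546156-143816285, with 44.2% and Pcsk1, at chr13:75089826-75134861, with 40.0%. Over the coding sequence alone Pcsk1n was the richest, with 72.1%. Exons of Pcsk1n overlap Eras on the opposite strand, which collected 16 counts over the 17 libraries. Exons of Pcsk2 overlap the antisense genes Pcsk2os1 and Pcsk2os2, with 1846 and 1746 counts, and reads of Pcsk2 and these genes may be mixed because no use of strand in the counting is stated.

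CBP is recruited to DNA by CREB, which binds the cAMP response element (CRE), so the promoters were searched for TGACGTCA on both strands. RefSeq promoters on GRCm38.p6 were found for 8 of the 10 genes, and Vgf and Cpe were not matched. The 250 bases upstream of each start were used. The element was present in Scg2, Chgb and Pcsk1, with its first base at -68, -72 and -78 from the start, and in 1.55% of 32851 promoters. Its core TGACG, which the full element contains, was found in 7 of the 8, the exception being Pcsk1n, and in 17.8% of all promoters. The 3 elements are shown with 10 bases on each side, 5′ to 3′ on the strand of the gene and with the CRE in capitals, because Scg2 and Chgb are the granins that rose after PTZ in controls and Pcsk1 is the convertase that was lower in CBP-ifKOs in each treatment. The promoter of Pcsk2, the convertase that was lower over all treatments, holds no full element. Chgb, which holds the element, was not lower in CBP-ifKOs, with log2 fold changes of 0.28 in Sal and 0.12 over all treatments. The stretch of Scg2 is at chr1:79440077-79440104 on the minus strand, that of Chgb at chr2:132781560-132781587 and that of Pcsk1 at chr13:75089769-75089796, both on the plus strand. The stretches of Scg2 and Chgb lie within exons of GENCODE M21 that begin further upstream than the RefSeq start.
Scg2: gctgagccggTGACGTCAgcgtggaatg
Chgb: ggctgctccgTGACGTCAgggctgagcg
Pcsk1: caggtagatcTGACGTCAagagatggct
The sequence upstream of Pcsk1n, at chrX:7919572-7919821 on the plus strand, is set beside them because Pcsk1n fell in Control PTZ45 against Sal, the comparison in which Scg2 and Chgb rose. An AP-1 motif, TGANTCA, has its first base at -234 and is in capitals. The motif was present in none of the other 7 promoters and in 6.75% of all.
Pcsk1n: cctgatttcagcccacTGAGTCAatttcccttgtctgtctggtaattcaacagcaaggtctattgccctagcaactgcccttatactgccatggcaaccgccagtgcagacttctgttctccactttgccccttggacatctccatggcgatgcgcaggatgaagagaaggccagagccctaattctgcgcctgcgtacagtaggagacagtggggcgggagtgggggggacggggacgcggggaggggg
The sequence upstream of Pcsk1, at chr13:75089607-75089825 on the plus strand, ends where its first annotated exon begins and holds the CRE and a second core, both in capitals.
Pcsk1: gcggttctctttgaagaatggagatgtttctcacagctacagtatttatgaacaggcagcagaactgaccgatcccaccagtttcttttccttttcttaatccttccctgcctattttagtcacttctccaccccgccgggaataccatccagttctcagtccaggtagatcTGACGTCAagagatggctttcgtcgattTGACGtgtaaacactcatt
A match of letters describes the sequence and was not tested as a binding site.

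Per kilobase of exon, Cpe was the most abundant of the 10 genes in Control Sal, with 6514 ± 832 normalized counts per kb (SD, n = 3). Chgb followed with 2086 ± 78.9, below every value of Cpe. Scg5, which encodes a chaperone of the Pcsk2 convertase, had 1079 ± 85.1, Scg3, a vesicle protein that binds chromogranin A, had 971 ± 56.3, and Scg2 had 938 ± 44.1. Scg5 and Scg3 overlapped, as did Scg3 and Scg2, while each value of Scg5 was above each value of Scg2, and the order of the 3 was the same in each library. Pcsk2 had 444 ± 22.6, Chga 332 ± 17.8 and Vgf 164 ± 9.83 per kb, each apart from its neighbours. Pcsk1n, which encodes proSAAS, an inhibitor of the Pcsk1 convertase, had 119 ± 14.7, and Pcsk1 itself had 98.0 ± 13.3. The values of Pcsk1n and Pcsk1 overlapped, whereas Scg5 stood above Pcsk2 in each Control Sal library.

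**Figure D1:**
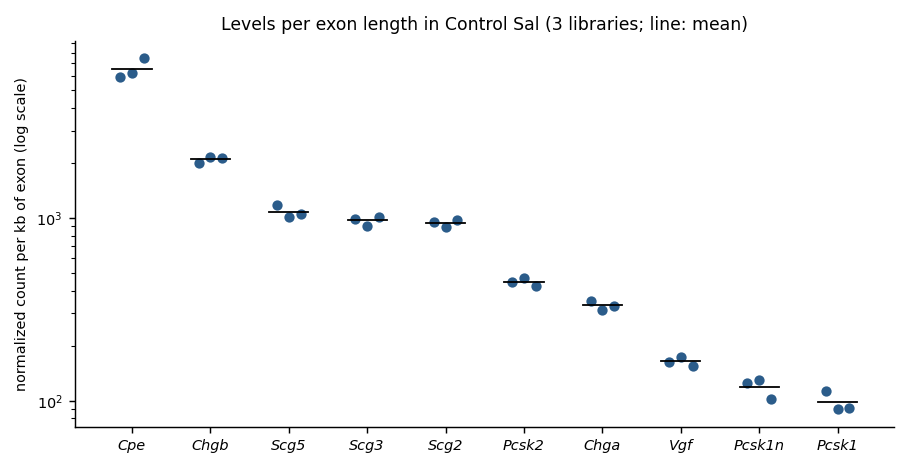
Normalized counts per kb of exon (log axis) of the 10 genes in the 3 Control Sal libraries, as points with the mean as a line. The means run from 6514 for Cpe to 98.0 for Pcsk1, and the points of Scg3 overlap with those of Scg5 and of Scg2, as do those of Pcsk1n with those of Pcsk1.

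Across the 6 groups, the levels that varied most were those of Pcsk1n, whose highest group mean was 2.25 times the lowest, and of Pcsk1, Vgf and Scg2, with ratios of 1.76, 1.66 and 1.58. Chgb had a ratio of 1.27, Cpe 1.21 and Scg5 1.18. Scg3, Chga and Pcsk2 varied least, with ratios of 1.14, 1.13 and 1.13. Over all 17 libraries normalized counts ran from 2402 to 3171 for Scg3, from 780.2 to 965 for Chga and from 2809.6 to 3776 for Pcsk2. The spread between libraries of a group also differed between genes. The median coefficient of variation within a group was 21.1% for Pcsk1n, the least counted of the 10 with 3589 counts in all, and 4.12% for Pcsk2.

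**Figure D2:**
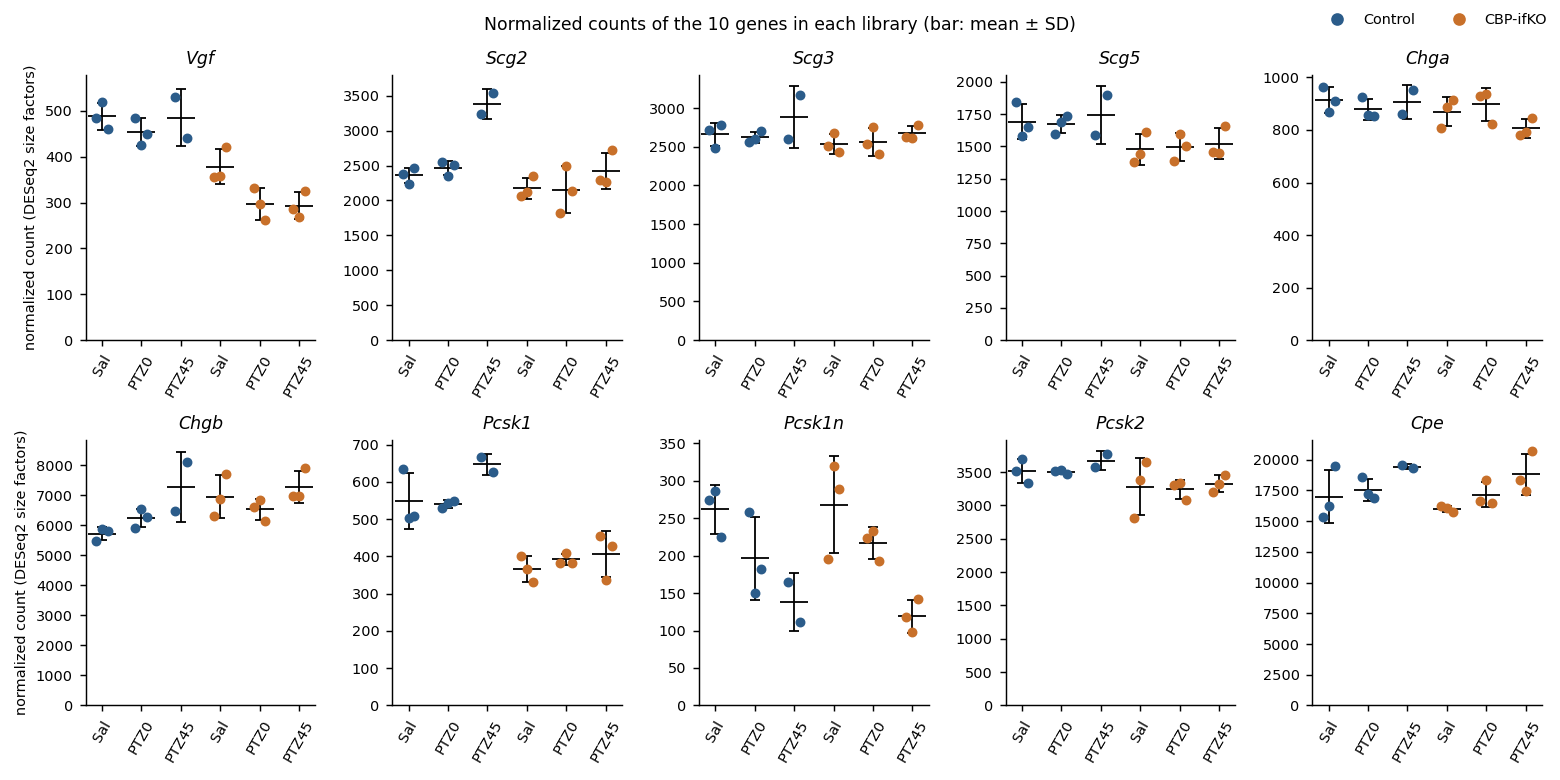
Normalized counts of each of the 10 genes in each of the 17 libraries, by genotype and treatment, with the mean and SD of each group. Scg2 was highest in both Control PTZ45 libraries (3235 and 3540), Vgf and Pcsk1 were lower in each of the 9 CBP-ifKO libraries than in each of the 8 controls, and Pcsk1n had its lowest group means after PTZ45 in both genotypes (138 in controls and 119 in CBP-ifKOs).

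The first comparison set control mice that were kindled and sampled 45 min after a last PTZ injection against control mice that had received saline throughout, so that kindling and the last injection differ together. In Control PTZ45 against Sal the granins Scg2 and Chgb rose, the convertase inhibitor Pcsk1n fell, and the other 7 genes did not pass the test. A gene was called at an adjusted p under 0.05 (Wald test of DESeq2, Benjamini-Hochberg adjustment over all genes), and 3 of 10 members were called against 1.17% of all 17367 genes tested. The median log2 fold change of the members was 0.09, against 0.0056 for all genes.

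Scg2, the precursor of secretoneurin, had 2376, 2241 and 2461 normalized counts in Control Sal and 3235 and 3540 in Control PTZ45. Both PTZ45 libraries lay above all Sal libraries. Its log2 fold change, 0.52 with an SE of 0.0867, had an adjusted p of 5.78e-07, and Scg2 was called in 11 of 13 alternatives. The call was lost in the 2 with the replicate number as a block, where the adjusted p was up to 0.0920. Chgb, the chromogranin with the highest level of the granins, had 5467, 5859.5 and 5819 normalized counts in Sal and 6455 and 8094 in PTZ45. The PTZ45 libraries again lay above all Sal libraries, but far apart from each other, and the rise of 0.35 on the log2 scale (SE 0.0973, adjusted p = 0.0365) rested on single libraries. The adjusted p of Chgb was 1.0 without Control PTZ45 replicate 2 and 0.164, 0.298 and 0.132 without Control Sal replicate 1, 2 and 3 (alternatives 0.000129 to 1.0).

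Pcsk1n had 274, 286 and 225 normalized counts in Control Sal and 165 and 111 in Control PTZ45. The PTZ45 mean was 52.8% of the Sal mean, with no overlap, and the fold change on the log2 scale was -0.91 (SE 0.198, adjusted p = 0.000636). When single libraries were left out, this call was lost without Control PTZ45 replicate 2, where the log2 fold change was -0.66 (adjusted p = 0.780), and without Control Sal replicate 2 (adjusted p = 0.0573), over a range of 0.000337 to 0.780 in the alternatives. Of the processing enzymes, Pcsk1 had a log2 fold change of 0.23 (95% interval -0.03 to 0.49, adjusted p = 0.751) and Cpe of 0.19 (interval 0.00024 to 0.38, adjusted p = 0.652). Vgf, known as an activity-induced granin, had 485, 518 and 460 normalized counts in Sal and 529.7 and 441 in PTZ45, with overlap and a log2 fold change of -0.0047 (interval -0.26 to 0.25). The log2 fold changes of Scg3, Scg5, Chga and Pcsk2 lay between -0.02 and 0.12.

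In CBP-ifKOs, PTZ45 was followed by a lower level of Pcsk1n and by no call among the other 9 genes. Pcsk1n had 196, 319.6 and 289 normalized counts in CBP-ifKO Sal and 118, 98.0 and 141 in CBP-ifKO PTZ45. The groups did not overlap and the PTZ45 mean was 44.4% of the Sal mean (adjusted p = 3.23e-05). It was 1 of 10 members called, against 0.294% of the 19757 genes tested. With the quasi-likelihood test of edgeR its adjusted p was 0.101, the highest of 15 alternatives, and the lowest was 1.60e-07. Of 8 excitatory neuron markers, 1 was called lower in the same comparison and 5 had an unadjusted p under 0.05 (median log2 fold change -0.21), and their part in this result was not tested.

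**Figure D3:**
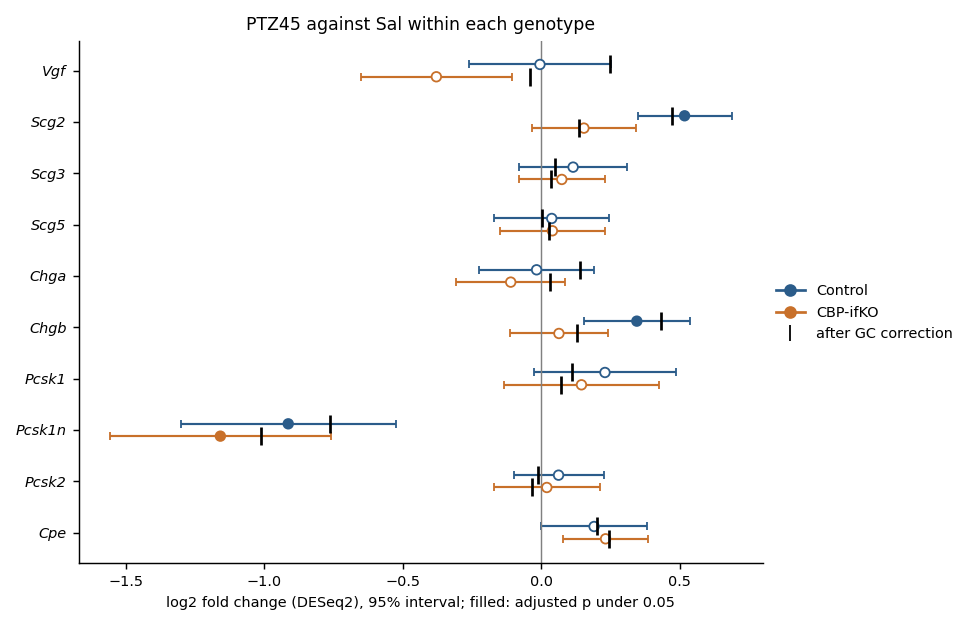
Log2 fold change of PTZ45 against Sal with its 95% interval for the 10 genes in controls and CBP-ifKOs, filled where the adjusted p was under 0.05, with the estimate after the GC correction as a black tick. Pcsk1n lies at -0.91 and -1.16, Scg2 at 0.52 in controls and 0.15 in CBP-ifKOs, and the ticks of Vgf lie 0.25 and 0.34 to the right of its points.

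Scg2 had 2061, 2114 and 2348 normalized counts in CBP-ifKO Sal and 2294, 2262 and 2721 in CBP-ifKO PTZ45. The groups overlapped, and the log2 fold change was 0.15 (95% interval -0.03 to 0.34, adjusted p = 1.0). Chgb had a log2 fold change of 0.06 (interval -0.11 to 0.24). Vgf moved down without passing the test, with 356, 357 and 422 normalized counts in Sal, 285, 269 and 325 in PTZ45 and a log2 fold change of -0.38 (interval -0.65 to -0.11, adjusted p = 0.584). Cpe did not overlap either, with 15755 to 16215 normalized counts in Sal and 17479.7 to 20694 in PTZ45, and a log2 fold change of 0.23 (interval 0.08 to 0.39, adjusted p = 0.424).

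The difference between the 2 responses was tested with an interaction term over the Sal and PTZ45 libraries of both. None of the 10 members was called by DESeq2, against 0.329% of 20945 genes. At an unadjusted p under 0.05 there were 3, and edgeR called 0. The members with the largest interaction were Vgf, at -0.38 (SE 0.182, adjusted p = 1.0), and Scg2, at -0.37 (SE 0.131, adjusted p = 0.917), both in the direction of a weaker or more negative response in CBP-ifKOs. After the GC correction described next they were at -0.30 and -0.34, in the other order, and Chgb lay between them at -0.31. For Pcsk1n it was -0.24 (95% interval -0.82 to 0.33). These genes therefore gave no call for a difference in response between the genotypes at this number of libraries, which does not exclude one. The responses also cross lanes, from 3 to 4 in controls and from 4 to 5 in CBP-ifKOs.

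Base composition was set against these fold changes by removing from each library the trend of its counts over exonic GC content. Over all genes this reduced the calls that fell in Control PTZ45 against Sal from 41 to 5 and those in CBP-ifKOs from 41 to 3, while the calls that rose went from 163 to 145 and from 17 to 14. Pcsk1n remained called in both genotypes. Its log2 fold change was then -0.76 (SE 0.19, adjusted p = 0.0106) in controls and -1.01 (SE 0.20, adjusted p = 0.000853) in CBP-ifKOs, so that 0.15 of the fall was removed in each. With the GC content of its coding sequence in place of that of its exons the log2 fold changes were -0.80 and -0.995.

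The correction moved Vgf most, as the gene richest in GC. Its log2 fold change went from -0.0047 to 0.25 in controls (adjusted p = 1.0) and from -0.38 to -0.04 in CBP-ifKOs. After the correction Vgf had 356, 328 and 378 normalized counts in CBP-ifKO PTZ45 against 381, 323 and 379 in Sal, and the groups overlapped. Chga, also GC-rich, was moved upward by 0.16 in controls and by 0.14 in CBP-ifKOs, and Pcsk1, the gene poorest in GC, downward by 0.12 and 0.07. Scg2 kept a log2 fold change of 0.47 (adjusted p = 2.03e-06) and Chgb had 0.43 (adjusted p = 0.00229) in controls. The direction of the 3 called genes in controls did not depend on this step.

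**Figure D4:**
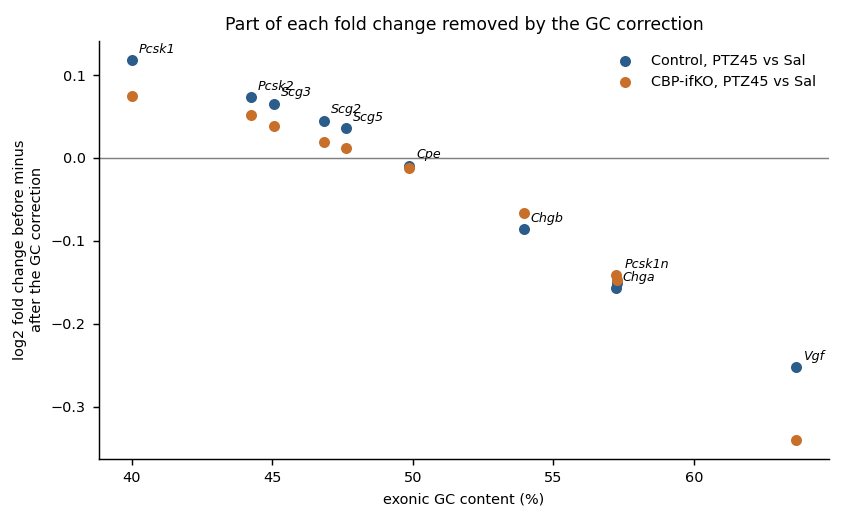
Exonic GC content (%) of the 10 genes against the part of the PTZ45 against Sal log2 fold change that the GC correction removed, in controls and CBP-ifKOs. The removed part falls from 0.12 for Pcsk1 to -0.25 for Vgf in controls, and Pcsk1n and Chga, with nearly the same GC content, lie at nearly the same height.

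PTZ45 was also compared with PTZ0, the mice that were kindled but received saline on the last day. Within a genotype these groups differ by the last injection, and in controls also by lane. In controls 1 of the 10 members was called, Scg2, against 1.25% of 17982 genes. Scg2 had 2547, 2352 and 2502 normalized counts in Control PTZ0, all below the 3235 and 3540 of PTZ45, a difference of 0.45 on the log2 scale (SE 0.0722, adjusted p = 7.54e-08). It was called in each of 13 alternatives, with adjusted p from 5.05e-09 to 0.0164. Pcsk1n had 258, 149.9 and 182 normalized counts in PTZ0, which overlapped with PTZ45, and was not called (log2 fold change -0.51, adjusted p = 0.494). Without Control PTZ45 replicate 1, Chgb (adjusted p = 1.05e-06) and Scg3 (adjusted p = 0.00844) were called higher as well. These contrasts share the Control PTZ45 libraries with those against Sal.

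In CBP-ifKOs, where PTZ45 and PTZ0 were in the same lane, Pcsk1n was again the 1 member called, against 0.0872% of 26374 genes. It had 224, 233 and 193 normalized counts in PTZ0, all above the 98.0 to 141 of PTZ45, a difference of -0.87 on the log2 scale (SE 0.179, adjusted p = 0.0027). The call was lost in 8 of 15 alternatives, whose log2 fold changes ran from -1.005 to -0.74 and adjusted p from 0.00139 to 1.0. It was lost without CBP-ifKO PTZ0 replicate 1 (0.113) or 2 (0.138), without CBP-ifKO PTZ45 replicate 1 (0.0753) or 2 (0.208), and without both libraries of high choroid plexus markers (1.0). Scg2 had a log2 fold change of 0.17 (95% interval -0.03 to 0.38, adjusted p = 1.0).

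The kindling protocol itself, given by PTZ0 against Sal, left no call among the members by DESeq2 in either genotype. The background was as low, with 0.00843% of 35602 genes called in controls and 0.0112% of 35705 in CBP-ifKOs. In controls 2 members had an unadjusted p under 0.05, Chgb with a log2 fold change of 0.13 and Pcsk1n with -0.40, and in CBP-ifKOs 1 did, Vgf with -0.36. With edgeR 0 members were called in either. In the order Sal, PTZ0 and PTZ45, the mean of Pcsk1n was 262 ± 32.2, 197 ± 55.6 and 138 ± 38.6 in controls and 268 ± 64.3, 217 ± 20.9 and 119 ± 21.8 in CBP-ifKOs, with PTZ0 between the others in both.

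The genotypes were then compared within each treatment, where they also lie in different lanes, so that genotype and lane differ together. Pcsk1 was lower in CBP-ifKOs in all 3 treatments and Vgf in both kindled groups, while Scg2 was called lower in PTZ45, the treatment in which it rose in controls. No member was called higher. The members called were 1 of 10 in Sal, 2 in PTZ0 and 3 in PTZ45, against 2.04% of 15004, 6.68% of 12752 and 3.07% of 15224 genes. The median log2 fold change of the 10 genes was -0.10 in Sal, -0.07 in PTZ0 and -0.18 in PTZ45, against -0.0019, 0.00058 and 0.0025 for all genes. The summed level of 10 interneuron markers moved with the genotype, from 10618 to 11051 normalized counts in controls to 8910.4 to 10107 in CBP-ifKOs, and its part in these results was not tested. That of 8 excitatory neuron markers overlapped, with 39636 to 50126 and 42418 to 53214, but single markers moved. Of these 8, 1 was called higher in Sal, 1 higher and 1 lower in PTZ0, and 2 lower in PTZ45, where their median log2 fold change was -0.19. Of 8 astrocyte markers, 2 were called lower in Sal (median log2 fold change -0.15) and 2 in PTZ0 (median -0.17), and 2 of 8 oligodendrocyte markers were lower in PTZ0 (median -0.24). Of 8 dentate granule cell markers, 2 were higher and 1 lower in PTZ0, and 1 was higher and 1 lower in PTZ45. The part of these markers was not tested either.

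Pcsk1, which makes the first cuts in many prohormones, had 635, 504 and 509 normalized counts in Control Sal and 402, 367 and 331 in CBP-ifKO Sal. It had 529, 545 and 549 in Control PTZ0 against 384, 409 and 383, and 667 and 627 in Control PTZ45 against 455, 337 and 429. No CBP-ifKO library reached the lowest control of its treatment. The CBP-ifKO mean was 66.8%, 72.4% and 62.9% of the control mean, with adjusted p of 0.00114, 0.000214 and 0.000414. The call was lost without Control Sal replicate 1 in Sal (0.0782), with both libraries of high choroid plexus markers left out in PTZ0 (log2 fold change -0.44, adjusted p = 0.180) and without Control PTZ45 replicate 1 in PTZ45 (0.156), where it was lost in 3 of 13 alternatives in all.

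Vgf had 485, 425 and 448 normalized counts in Control PTZ0 and 331, 298 and 263 in CBP-ifKO PTZ0, without overlap. The difference was -0.62 on the log2 scale (SE 0.119, adjusted p = 1.92e-05), and Vgf was called in each of 15 alternatives there. In PTZ45 it was -0.73 (SE 0.153, adjusted p = 0.000214), and the call was lost without Control PTZ45 replicate 1 (0.267) and in 3 of 13 alternatives in all (2.22e-06 to 0.669). In Sal it was -0.36 (SE 0.122, adjusted p = 0.108), again without overlap. After the GC correction the 3 values were -0.49, -0.51 and -0.23, and Vgf was still called in PTZ0 (0.000561) and in PTZ45 (0.0170).

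Scg2 differed by genotype in PTZ45, by -0.48 on the log2 scale (SE 0.101, adjusted p = 0.000220), and this call was lost without Control PTZ45 replicate 2 (0.0942). It was -0.12 in Sal and -0.20 in PTZ0, where it was called without CBP-ifKO PTZ0 replicate 2 (0.00143). Chgb was above 0 in all 3 treatments. In Sal its libraries did not overlap, with 6289.8 to 7688 normalized counts in CBP-ifKOs against 5467 to 5859.5 in controls, a difference of 0.28 on the log2 scale (SE 0.0855, adjusted p = 0.0524) that passed the test after the GC correction (0.30, adjusted p = 0.00794). In PTZ45 the Chgb means were level, with a log2 fold change of 0.0036 (95% interval -0.20 to 0.20). Pcsk1n, the member with the largest fold change after PTZ45, showed no call by genotype in any treatment, and in Sal its log2 fold change was 0.01 (interval -0.33 to 0.36).

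**Figure D5:**
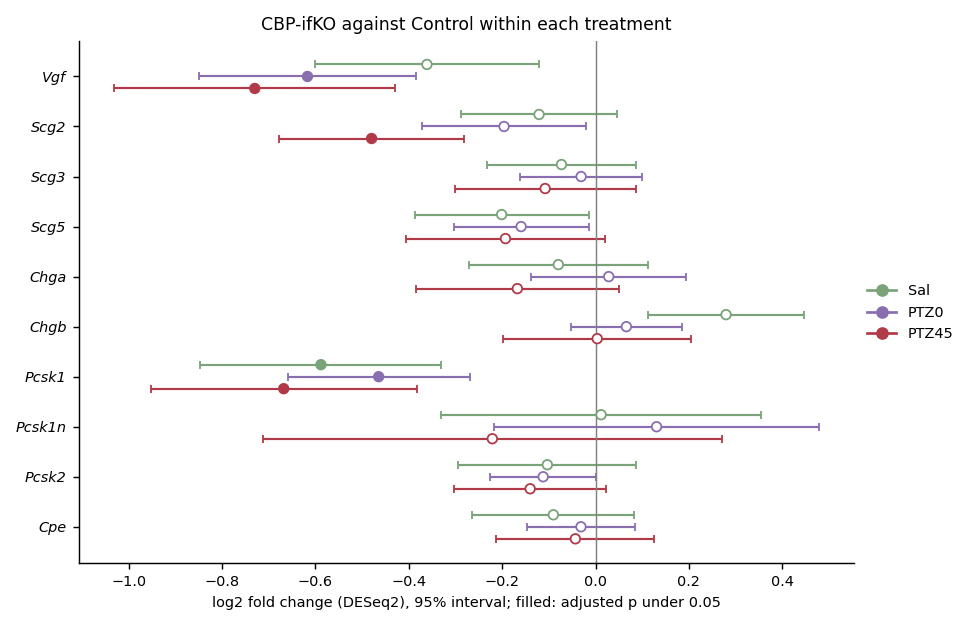
Log2 fold change of CBP-ifKO against Control with its 95% interval for the 10 genes in Sal, PTZ0 and PTZ45, filled where the adjusted p was under 0.05. Pcsk1 lies at -0.59, -0.46 and -0.67 and Vgf at -0.36, -0.62 and -0.73, while Scg2 lies at -0.12, -0.20 and -0.48 and Chgb lies at 0.28 in Sal.

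With all 17 libraries in 1 fit and treatment as a term, 5 of the 10 members were lower in CBP-ifKOs and none was higher, against 11.5% of 18682 genes lower and 19.3% called either way. They were the granins Vgf and Scg2, the convertases Pcsk1 and Pcsk2, and Scg5, the chaperone of the latter. Vgf stood at 474 ± 37.1 normalized counts (SD, n = 8) in controls and at 323 ± 51.0 (n = 9) in CBP-ifKOs, with a lowest, median and highest value of 425, 472 and 529.7 against 263, 325 and 422. Pcsk1 stood at 571 ± 62.9 and 389 ± 40.6, with 504 to 667 in controls and 331 to 455 in CBP-ifKOs. For both genes no CBP-ifKO library reached the lowest control. Their log2 fold changes were -0.56 (SE 0.0729, adjusted p = 2.54e-12) and -0.57 (SE 0.0674, adjusted p = 6.02e-15).

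The other 3 differences were small and their libraries overlapped. Scg2 had a log2 fold change of -0.25 (adjusted p = 0.00138), Scg5 of -0.18 (0.00285) and Pcsk2 of -0.12 (0.0449). Scg5 was not called without the 5 libraries of high choroid plexus markers (0.0575). Pcsk2 lost its call in 19 of 26 alternatives, where its adjusted p was up to 1.0. Among these were the 12 that left out a control other than Control Sal replicate 3, or CBP-ifKO Sal replicate 1, CBP-ifKO PTZ0 replicate 1 or 3, or CBP-ifKO PTZ45 replicate 1 or 2 (0.0504 to 0.108). Scg3, Chga and Cpe had log2 fold changes of -0.07, -0.07 and -0.06, Chgb of 0.12 (adjusted p = 0.112) and Pcsk1n of -0.0042 (95% interval -0.24 to 0.23). Markers of cell types moved as well. By the same test 5 of 10 interneuron genes (median log2 fold change -0.15) and 4 of 8 astrocyte genes (median -0.12) were lower. Of 8 excitatory neuron genes 1 was higher and 2 lower (median -0.10), of 8 dentate granule cell genes 2 were higher and 3 lower (median -0.06), and of 8 oligodendrocyte genes 0 were called by DESeq2 or edgeR, with 6 at an unadjusted p under 0.05 (median -0.16). Their part in these differences was not tested. With lane as a further term 131 of 16404 genes were called, and of the members Pcsk1 alone, at -0.79 (adjusted p = 0.0233). Vgf was then at -0.47 (adjusted p = 0.597), Scg2 at -0.40 (0.534) and Scg5 at -0.23 (0.987). Only lane 4 holds both genotypes, as CBP-ifKO Sal and Control PTZ45. This fit therefore assumes that both genotypes respond alike to treatment, and a rise after PTZ in controls alone would enter its genotype term.

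Genes that act with these members were taken from 3 lists. Of 16 other processing enzymes measured, 14 had an adjusted p over all treatments. Of these, 3 were higher and 3 lower in CBP-ifKOs, where 19.3% of all genes tested were called and 11.5% were lower. Pam, which amidates peptides after Cpe has trimmed them, fell from 3317 to 2822 normalized counts on average, without overlap (log2 fold change -0.24, adjusted p = 1.57e-10). Pcsk5, a convertase of the furin type, was at -0.31 (adjusted p = 3.46e-05), and Cpd, a carboxypeptidase of the trans-Golgi network, at -0.20 (3.75e-10). The lysosomal protease Ctsl was higher by 0.22 (0.00035), the aminopeptidase Rnpep by 0.20 (0.0160) and Nrd1, which cuts beside basic residues, by 0.13 (0.000967). Each of these 6 calls was lost in 1 to 4 of 26 alternatives (with lane as a term in each case, where the adjusted p was 0.546 for Cpd and 1.0 for Pcsk5), and 4 genes of the list were called without the 5 libraries of high choroid plexus markers. The list had a median of 0.03, against 0.0098 for all genes. Within treatments the list held 2 calls, Pam (-0.23, adjusted p = 0.00166) and Pcsk5 (-0.35, adjusted p = 0.0494), both lower in PTZ0, where 6.68% of all genes were called. The call of Pcsk5 was lost in 13 of 15 alternatives (0.0171 to 0.843) and that of Pam in 2 (9.45e-05 to 0.384).

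Among 22 genes of dense core vesicle formation and release, 1 was higher and 6 were lower in CBP-ifKOs over all treatments, with a median log2 fold change of -0.05 against 0.0098 for all genes, of which 19.3% were called and 11.5% were lower. Atp6ap1, an accessory subunit of the vesicular proton pump, was higher by 0.19 (adjusted p = 0.000934). Of the 6, the largest differences were those of the calcium sensor Syt10, at -0.47 (1.72e-05), Resp18, a dense core vesicle protein, at -0.42 (9.90e-06), and Rundc3a, at -0.21 (0.00525). The call of Rundc3a was lost in 4 of 26 alternatives and the other 3 in 1 each, with lane as a term, and 4 genes of the list were called without the 5 libraries of high choroid plexus markers. Rundc3a, with a GC content of 60.01%, was not called after the GC correction (0.0628), and Resp18 was, at -0.41 (1.29e-05). Within treatments Atp6ap1 was called higher and Resp18 and Rundc3a lower in PTZ0, where 6.68% of all genes were called. Of 15 alternatives, 10 did not call Atp6ap1, 10 did not call Resp18 and 13 did not call Rundc3a. edgeR called 0 genes of the list there, with 4 at an unadjusted p under 0.05 by DESeq2. Ptprn2, a membrane protein of these vesicles, was lower in PTZ45 (-0.29, adjusted p = 0.0289), a call lost in 8 of 13 alternatives (0.00576 to 0.889). In Control PTZ45, Syt4, an activity-regulated synaptotagmin of dense core vesicles, was at 0.29 against Sal (adjusted p = 0.0360) and at 0.24 against PTZ0 (0.0355), with calls lost in 11 and in 13 of 13 alternatives, the GC correction among them (0.964 and 1.0).

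The third list held precursors that such enzymes cut. Of 23 prohormone substrates, 20 had an adjusted p over all treatments. Of these, 8 were lower in CBP-ifKOs and 0 higher, beside 11.5% of all genes lower. Their median log2 fold change was -0.36, against 0.0098 for all genes. Sst, Cck and Vip of this list are also among the interneuron markers, whose part was not tested. Penk, the enkephalin precursor, had a mean of 194 normalized counts in controls and 76.8 in CBP-ifKOs, or -1.36 on the log2 scale (SE 0.0975, adjusted p = 2.39e-41). Grp, the precursor of gastrin-releasing peptide, went from 195 to 83.9 (-1.22) and Pdyn, the dynorphin precursor, from 95.4 to 42.1 (-1.14). For all 3 no CBP-ifKO library reached the lowest control, and the calls of Penk and Grp held in each of 26 alternatives, while that of Pdyn was lost in 1 (0.880). Within treatments 5, 5 and 4 substrates were lower in Sal, PTZ0 and PTZ45, of 17, 14 and 17 with an adjusted p. Of all genes, 2.04%, 6.68% and 3.07% were called there. After PTZ45 against Sal none of the substrates was called by DESeq2 in either genotype, with 2 at an unadjusted p under 0.05 in controls and 0 in CBP-ifKOs, and edgeR called 1 and 0.

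The genes whose levels followed those of the 4 most variable members were sought among 13041 genes over the 17 libraries, which share genotype and treatment differences, so that the correlations describe these libraries and are not tests. Those most like Vgf were Cabp1 (Pearson's r = 0.92), Hrh3, Erf, Rcc2 and Camkk2, with exonic GC contents of 52.4% to 61.0%. Those most like Pcsk1n were Abhd8 (r = 0.95), Irf2bp1, Map2k2, Tmem160 and Zfr2, with 55.2% to 64.0%. Both sets are thus GC-rich, like the genes they follow. Those most like Scg2 were Rheb (r = 0.93), the noncoding C130071C03Rik, Fbxw7 and Btg1, with 39.4% to 45.6%. Those most like Pcsk1 were Pgm2l1 (r = 0.95), Slc8a1, Mctp1, Psd3 and Camk4, with 40.6% to 48.2%. Within the 10 members, the pairs with the highest r were Vgf with Pcsk1 (0.73), Scg2 with Scg5 (0.70) and Scg5 with Pcsk1 (0.70), and the lowest was Pcsk1n with Cpe (-0.53).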

How the data were processed

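Gene counts of 17 hippocampal libraries were analysed. The authors trimmed single-end reads (Trim Galore 0.6.4), aligned them to GRCm38 with STAR 2.6.1, kept reads of sufficient mapping quality and counted them over Ensembl exons with Rsubread. The deposited values are raw counts per gene, not normalized. Of 18 count columns, 1 matched no sample and was not used; its name is like those of Control PTZ45, the group of 2 libraries. Symbols, positions and GC content came from GENCODE M21, which held 99.6% of the identifiers. Where near-identical gene copies exist, counts are uncertain.

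The members, gene lists and alternatives were chosen with earlier results of these data known. The members are named in every comparison, each of the 3 lists by at most 3 called genes per direction with the largest log2 fold change, and the most alike genes by the 5 highest correlations of log2 levels, where a gene's mean normalized count was 50 or more (1 such gene is not reported here). The main test was the two-sided Wald test of DESeq2 1.42.0 (R 4.3.3), as in the study's methods, on the groups compared, with independent filtering and Benjamini-Hochberg adjustment. A call was an adjusted p under 0.05. Normalized counts are counts divided by DESeq2 size factors of all 17 libraries. Simulated data were used for the PTZ45 against Sal fits only, with DESeq2, edgeR and the GC correction. Alternatives were edgeR 4.0.16, TMM size factors, a filter of 10 counts in 2 libraries, 1 fit of all libraries, the replicate number as a block, a GC correction (loess, span 0.5, on genes averaging 20 counts or more), both together, lane as a term and leaving out each library. The GC correction on coding sequence and the fits without 5 libraries of high choroid plexus markers were added after seeing the data. The p-values measure the spread between libraries of 1 mouse each, and low counts limit precision.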

Additional observations from a re-analysis of the deposited data

How the results depend on the processing

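Over the alternatives no member changed from a call in 1 direction to the other. Of 1750 values for single members, 1680 stayed on their side of the threshold, 55 lost a call and 15 gained one. Of 1439 values called neither way, 120 had another sign than the main value. The number of members called in Control PTZ45 against Sal was 3 and went to 0 with the replicate number as a block, alone or with the GC correction (adjusted p = 0.0817 and 0.0920 for Scg2, 0.137 and 0.432 for Pcsk1n), to 2 with edgeR or the filter, and to 1 to 3 when single libraries were left out. In CBP-ifKO PTZ45 against Sal it was 1 and went to 0 with edgeR and to 2 with the replicate block. In Control PTZ45 against PTZ0 it went from 1 to 2 with the GC correction on coding sequence and to 1 to 3 without single libraries. In CBP-ifKO PTZ45 against PTZ0 it went from 1 to 0 with edgeR, with the replicate block, with the block and the GC correction and without libraries of high choroid plexus markers, and to 0 to 1 without single libraries. By genotype in Sal it went from 1 to 2 with either GC correction or TMM size factors, to 3 in 1 fit of all 17 libraries and to 0 to 2 without single libraries. By genotype in PTZ0 it went from 2 to 1 without libraries of high choroid plexus markers and to 2 to 3 without single libraries. By genotype in PTZ45 it went from 3 to 1 with the block, alone or with the GC correction, and to 1 to 3 without single libraries. Over all treatments it went from 5 to 1 with lane as a term, to 4 with edgeR, the filter or either GC correction, to 3 without libraries of high choroid plexus markers and to 4 to 5 without single libraries. Over all genes the block cut calls from 204 to 73 in Control PTZ45 against Sal and from 468 to 102 by genotype in PTZ45. In CBP-ifKO PTZ45 against Sal it raised them from 58 to 84. The causes were not tested, beyond the fewer libraries and residual degrees of freedom that the block, lane and left-out fits have. Of 120 mean levels, 7 moved by more than 1 SD with the GC correction. Replicate numbers are only names here, since libraries of the same number did not deviate together, with correlations from -0.52 to 0.48. Leaving out a Control PTZ45 library leaves 1 in that group, which is then assumed to vary like the others.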
